A study of Mus musculus with 8 samples.

Results

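The genes described here flank Rpl13a, the ribosomal protein gene of mouse chromosome 7 whose introns hold U32a, U33, U34 and U35a, small nucleolar RNAs of the box C/D kind. They are 36 listed genes chosen for their position close to Rpl13a, and all 36 stood among the 24469 genes of the count table. RNA was sequenced from hand-picked pancreatic islets, small groups of endocrine cells, of 8-week-old mice. A first group of 4 libraries came from wildtype C57BL/6 mice. The second group of 4 came from mice labelled RpL13a snoRNA knockout, also on C57BL/6, which lack the function of those 4 snoRNAs. The labels give 4 mice per genotype, and how the knockout allele was made is not given in the sources used here. In such bulk samples fewer cells of a type and less RNA per cell cannot be told apart.

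The listed genes share a stretch of chromosome and no common function. Among them are a transcription factor of interferon induction (Irf3), a clathrin adaptor subunit (Ap2a1), the ferritin light chain (Ftl1) and both Ruvbl2 and Pih1d1, parts of the R2TP co-chaperone complex that helps to assemble box C/D snoRNPs. Such gene-dense stretches of mammalian chromosomes are usually rich in the bases G and C. GC content matters for sequencing because copying and amplification of cDNA can favour templates of high or of low GC content, and libraries can differ in this. A gene next to an engineered locus is also of interest because the allele, or chromosome carried along with it, can alter its neighbours.

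The listed genes stood out for the base composition of their transcripts. GC content was taken from the longest coding transcript of each gene, and the 31 listed genes with enough counts to be tested had a median of 57.9%, against 50.1% for all tested genes. Of these 31, 30 lay above that overall median, with Dhdh as the exception at 47.0%. When all tested genes with a known transcript were divided by GC content into 10 classes of equal size, 12 listed genes fell in the top class (58.2 to 72.8%), 14 in the next and 3 in the one below. Ptov1 was richest at 64.1% and Scaf1 followed at 63.0%, while Nucb1, at 52.7%, was the poorest after Dhdh. The coding stretches below show that range: each is the first run of 120 coding bases whose GC content is nearest to that of the whole transcript, with G and C in capitals, from GENCODE transcripts of GRCm38.
Ptov1, coding bases 156 to 275: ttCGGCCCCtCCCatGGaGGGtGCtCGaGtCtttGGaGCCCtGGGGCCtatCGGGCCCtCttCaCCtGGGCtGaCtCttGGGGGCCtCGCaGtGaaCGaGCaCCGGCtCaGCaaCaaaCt
Scaf1, coding bases 108 to 227: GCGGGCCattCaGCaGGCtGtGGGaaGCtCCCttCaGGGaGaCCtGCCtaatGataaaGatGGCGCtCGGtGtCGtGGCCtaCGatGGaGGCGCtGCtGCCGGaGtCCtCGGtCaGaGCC
Nucb1, coding bases 639 to 758: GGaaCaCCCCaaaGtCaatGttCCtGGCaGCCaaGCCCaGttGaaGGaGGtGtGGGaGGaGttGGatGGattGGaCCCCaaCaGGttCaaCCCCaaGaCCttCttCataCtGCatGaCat
Dhdh, coding bases 534 to 653: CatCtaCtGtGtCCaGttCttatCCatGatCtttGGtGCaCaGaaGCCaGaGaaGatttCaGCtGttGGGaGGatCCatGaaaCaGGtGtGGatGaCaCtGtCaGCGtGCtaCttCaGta
The GC content of the printed stretches was 64.2, 63.3, 52.5 and 46.7%. The whole coding sequences of Nucb1 and Dhdh held 58.5 and 55.1%, so their noncoding parts were poorer in G and C than their coding parts. RefSeq promoter windows of 32 of the 36 genes held a median of 14 CG pairs, beside 7 in all 32851 windows of the same length.

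The libraries held 21235196 to 41148318 assigned counts, of which the ribosomal RNA precursor Rn45s took 36.7 to 41.3%. Beta-cell marker genes took 10 to 24% of a wild-type library and 8.65 to 16.3% of a knockout library, and those of alpha, delta and PP cells 0.283 to 0.541% and 0.226 to 0.646%, with no marker of either list at 0 over the 8 libraries. Acinar genes of the exocrine pancreas took 2.08 to 26.9% in wild type and 5.47 to 28.6% in knockout. Genes of leukocytes, endothelium, ducts and nerve each took at most 0.0291%. Liver genes took at most 0.000988% except in knockout replicate 2, at 0.58%. Wild-type replicate 1 stood apart from the other wild-type libraries in the dependence of its levels on GC content, so calls that differ without it are given both ways below.

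Levels of the flanking genes leaned lower in the knockout, and none passed the test adjusted over all genes. Of the 31 tested genes 25 had a negative log2 fold change (knockout against wild type), where 48.7% of all 13617 tested genes did. The median over the 31 was -0.24, beside 0.0098 over all tested genes. In edgeR's quasi-likelihood test with Benjamini-Hochberg adjustment 0 of 31 passed FDR 0.05, as against 0.0147% of all tested genes. At an unadjusted p under 0.05, 11 were lower, or 35.5%, and 1 was higher, where 10.3% of all tested genes were lower and 8.42% higher. All 4 knockout libraries lay below all 4 wild-type libraries for 3 genes (background 4.66%) and above them for 1 (background 3.68%). DESeq2 called 4 of the 31, all lower, which were Scaf1, Prr12, Ap2a1 and Nucb1, where it called 2.38% of all tested genes lower. It gave 7 of the 31 no adjusted p, Bcl2l12 and Il4i1 among them, so 24 could be called. Without wild-type replicate 1 edgeR called 6, all lower, with Med25 and Ptov1 added to the same 4. That is 19.4% of the 31, where 6.08% of all genes tested without that library were called lower. The library was singled out by how its levels depend on GC content, so adjusted p-values without it, here and below, are descriptive only. Leaving out any other single library, edgeR called 0 of the 31.

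**Figure D1:**
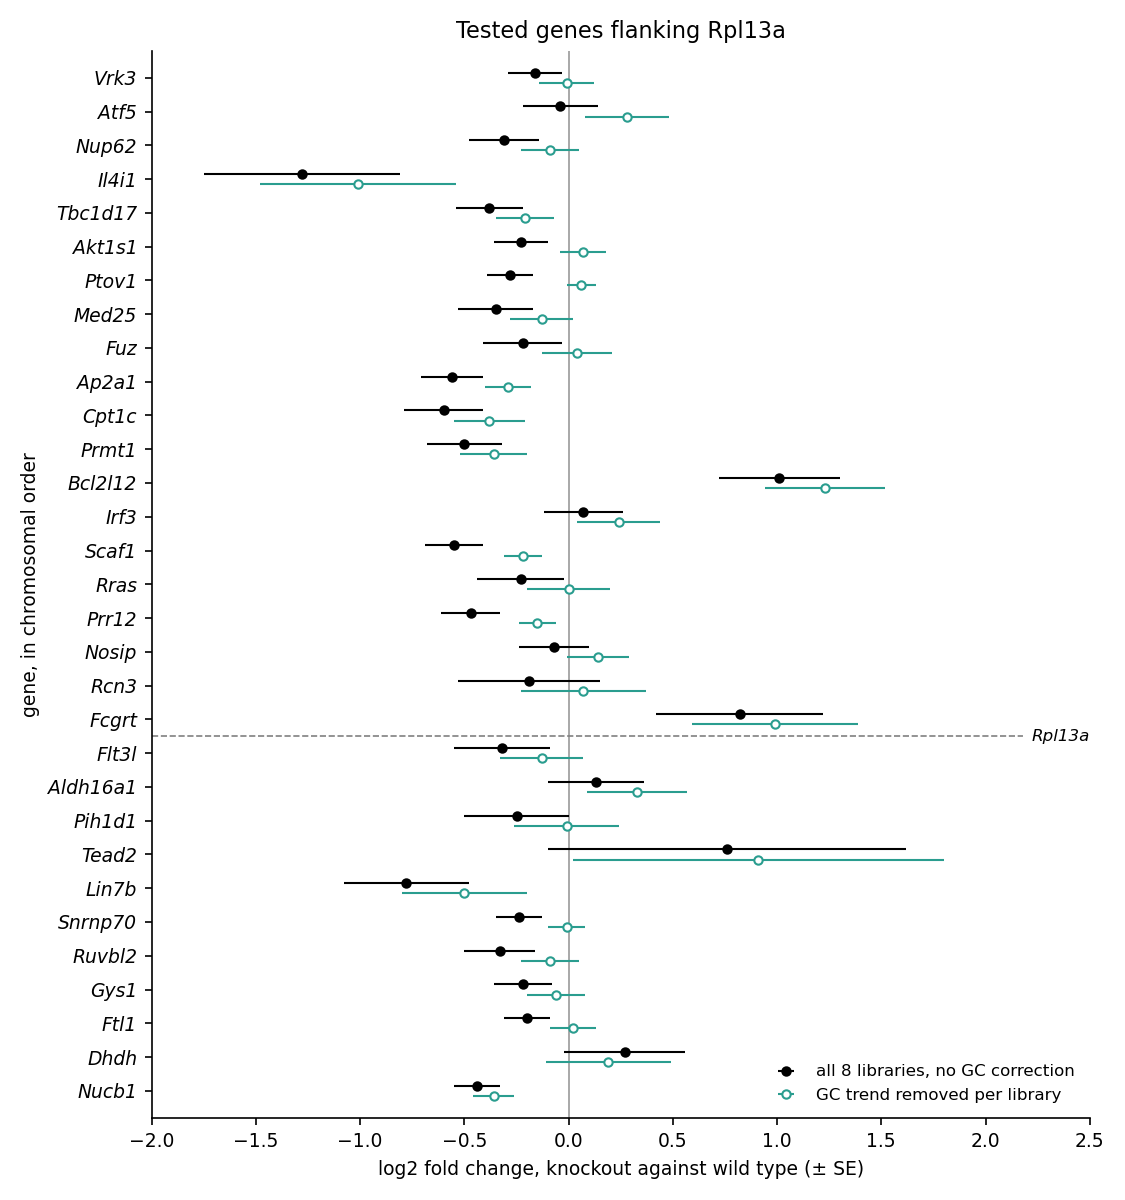
Log2 fold change of knockout against wild type (x axis, bars ± SE) for the 31 tested genes in chromosomal order, without GC correction (black) and after removal of each library's GC trend (open green). Most black points lie left of 0, with a median of -0.24, and the green points scatter around 0, with a median of -0.0088.

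The lean followed GC content across the whole transcriptome. Over all tested genes the median log2 fold change went from 0.205 in the poorest class (31 to 41.8% GC) through 0.0327 in the class from 48.3 to 50.1% to -0.277 in the richest. In the richest class 80.6% of all genes had a negative value and 31.6% were lower at an unadjusted p under 0.05. In the class below it these shares were 75 and 22.6%, and in the poorest class 14.1 and 0.37%. If each of the 31 flanking genes is given the share of its own class, the average is 24.6% lower at an unadjusted p under 0.05 and 74.8% negative, beside the 35.5 and 80.6% observed. Set against the median of its own GC class, 18 of the 31 lay below and 13 above, with a median difference of -0.01. Across the 13512 tested genes with a known transcript, Pearson's r of GC content with log2 fold change was -0.31 and Spearman's rho -0.46, a description across genes that share the same 8 libraries. Across the 31 flanking genes both were -0.27, and r was -0.20 without Dhdh, the poorest in GC, among genes that span a narrow range of composition.

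**Figure D2:**
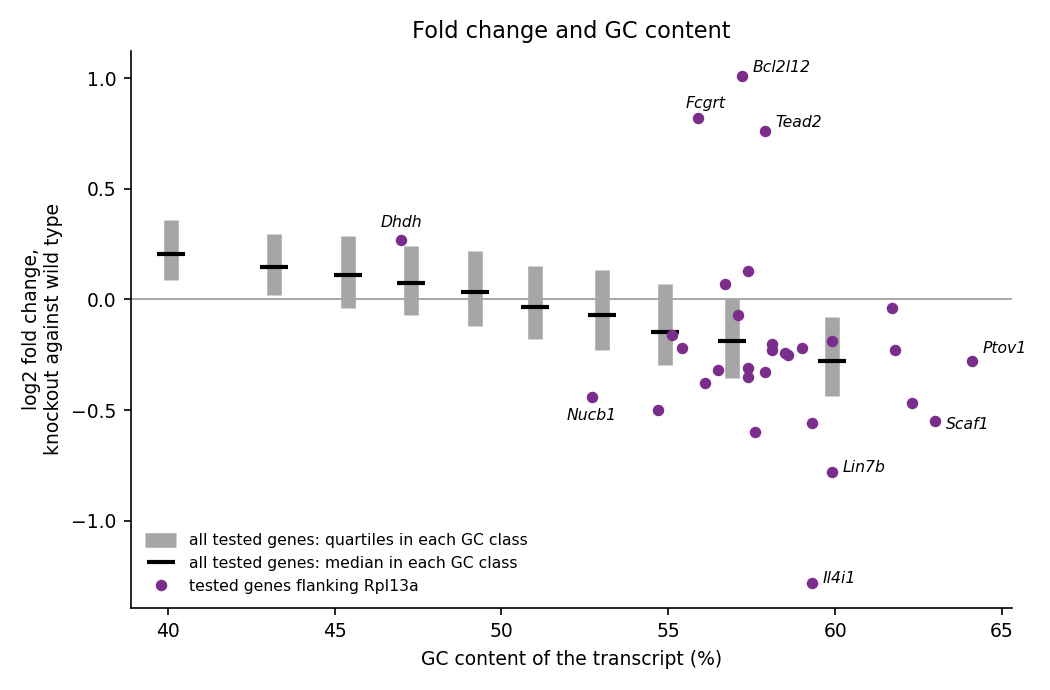
Log2 fold change (y axis) against transcript GC content (x axis, percent) for the 31 tested flanking genes (purple) and, in grey and black, the quartiles and median of all tested genes in each GC class, drawn at the class's median GC content. The medians go from 0.205 to -0.277 as GC content increases, and most flanking genes lie around the medians of the classes richest in GC, with Bcl2l12, Fcgrt and Tead2 above and Il4i1 and Lin7b below.

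The same dependence could be read in each library. CPM is a gene's count scaled to its library's total multiplied by that library's composition factor (TMM), which ranged from 0.7013 to 1.338. For the slopes, log2 CPM was taken relative to the gene's mean over the 8 libraries. The slope of log2 CPM on GC content, per 10 percentage points, was 0.167, 0.158 and 0.19 in wild-type replicates 2, 3 and 4. It was -0.0582 in wild-type replicate 1. In knockout replicates 1 to 4 it was 0.00084, -0.133, -0.162 and -0.163. The genotypes overlapped through wild-type replicate 1. The means of 0.114 ± 0.116 in wild type and -0.114 ± 0.078 in knockout (SD, n = 4 each) differed by -0.229, with a two-sided exact permutation p of 0.0571 where the smallest p the 70 splits allow is 0.0286. Without wild-type replicate 1 the difference was -0.286, and no p is given because that library was singled out by this slope. Leaving out any other library gave -0.267 to -0.203, with exact permutation p from 0.0571 to 0.0857. The flanking genes varied along with these slopes, as did all tested genes of the class richest in GC. Their median deviation from the mean of the 8 libraries was 0.22, 0.16 and 0.28 in wild-type replicates 2, 3 and 4 and -0.07 in wild-type replicate 1, and 0.03, -0.18, -0.10 and -0.20 in the knockout libraries. For all genes of that class it was, in the same order, 0.23, 0.18 and 0.21, then -0.07, and -0.01, -0.15, -0.19 and -0.19. The 3 libraries with the steepest positive slopes had the 3 highest medians of the flanking genes, and wild-type replicate 1 lay below knockout replicate 1 in both measures. Knockout replicate 3 went against the order, with a lower slope but a higher median of the flanking genes than knockout replicate 2. The slope and the median come from the same libraries, and no p is given for their relation.

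**Figure D3:**
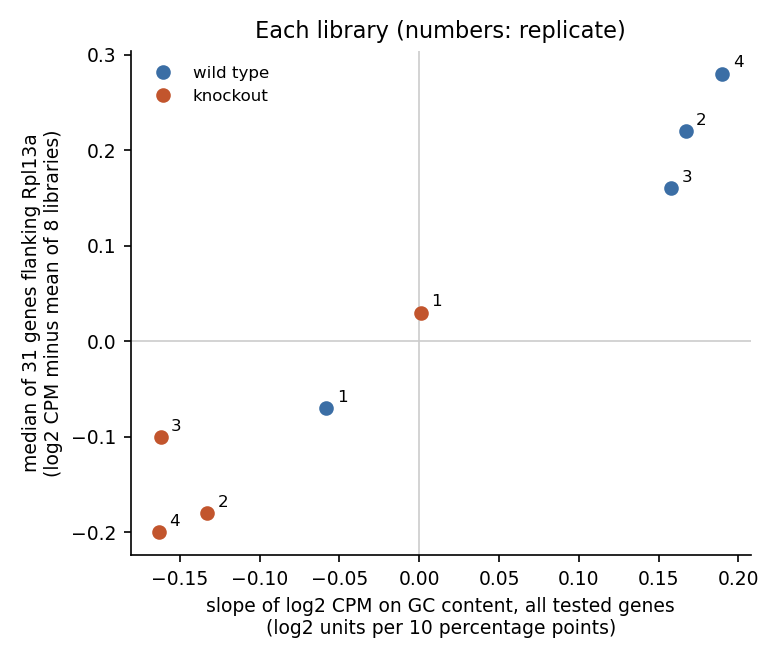
Median level of the 31 flanking genes in each library (y axis, log2 CPM minus the mean of the 8 libraries) against that library's slope of log2 CPM on GC content over all tested genes (x axis, log2 units per 10 percentage points). Wild-type replicates 2 to 4 lie at the upper right, between 0.16 and 0.28 on the y axis, knockout replicates 2 to 4 at the lower left, between -0.20 and -0.10, and wild-type replicate 1 and knockout replicate 1 between them.

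When a smooth GC trend was removed from each library before the test, the median of the 31 genes was -0.0088, beside 0.0055 for all tested genes. Of the 31, 17 then had a negative value, or 54.8%, where 49.0% of all tested genes did. Removal moved 30 of 31 estimates up, by up to 0.34 (Ptov1), with a median shift of 0.22, and moved Dhdh down by 0.07. It changed the sign of 8 genes. Again 0 of 31 passed FDR 0.05 in edgeR, as against 0.0147% of all genes, and 4 were lower and 2 higher at an unadjusted p under 0.05, where 6.13 and 6.34% of all tested genes were. The 4 lower genes, 12.9% of the 31, were Nucb1, Ap2a1, Scaf1 and Prmt1, all among the 11 of the uncorrected test, and the 2 higher genes were Bcl2l12 and Fcgrt. With the mean GC content over all transcripts of a gene in place of the longest one, the median of the 31 was -0.075, with 19 negative, 6 lower and 2 higher at that p. Of all 13617 tested genes 888 were lower and 904 higher at that p in the same fit. With the trend on the longest transcript removed and wild-type replicate 1 left out, 0 of 31 passed FDR 0.05, where 1.14% of all genes did.

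Of the 9 genes of transcription and chromatin 7 had negative values and 3 were lower at an unadjusted p under 0.05, with a median of -0.28 that was -0.01 with the GC trend removed. Beside this and each role group below, 48.7% of all tested genes were negative, and 10.3% were lower and 8.42% higher at that p. In the 2 classes richest in GC 75 and 80.6% were negative and 22.6 and 31.6% lower. Scaf1, which encodes an SR-related protein that binds RNA polymerase II, was measured at 23.5, 34.2, 30.4 and 32.5 CPM in wild-type replicates 1 to 4 and at 25.7, 18.4, 18.8 and 19.6 CPM in the knockout replicates. Knockout replicate 1 lay above wild-type replicate 1, and all other knockout libraries lay below all wild-type libraries. It had a log2 fold change of -0.55 ± 0.14 (± SE, as for each log2 fold change, with an edgeR adjusted p of 0.144), and -0.22 ± 0.09 with the GC trend removed (adjusted p = 0.369). Its transcripts averaged 57.1% GC, and removal with that value gave -0.35 ± 0.11 (unadjusted p = 0.00701). Without wild-type replicate 1 it was -0.67 (adjusted p = 0.014). Prr12, which encodes a proline-rich nuclear protein, had 39.6, 63.2, 49.0 and 56.7 CPM in wild-type libraries against 43.5, 35.2, 35.8 and 36.1 CPM in knockout. Here too knockout replicate 1 lay inside the wild-type range. On the log2 scale the difference was -0.47 ± 0.14 (edgeR adjusted p = 0.154), -0.15 ± 0.09 with the GC trend removed and -0.60 without wild-type replicate 1 (adjusted p = 0.0156).

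Ptov1, which shares a protein domain with the Mediator subunit Med25 and lies beside it, had 22.5, 28.1, 27.1 and 28.2 CPM in wild-type libraries against 25, 20.3, 21.3 and 20.7 CPM in knockout. The estimated log2 change was -0.28 ± 0.11 (edgeR adjusted p = 0.213) and was 0.06 ± 0.07 with the GC trend removed, the largest move among the 31 genes. With the mean GC content of its transcripts, 60%, that value was -0.02 ± 0.07. The log2 change was -0.37 without wild-type replicate 1 (adjusted p = 0.0378). Med25 had 5.77 CPM in wild-type replicate 1 and 9.64 to 10.1 CPM in the other wild-type libraries, and 6.10 to 8.23 CPM in knockout. All knockout libraries thus lay between wild-type replicate 1 and the rest of the wild type. Its log2 fold change was -0.35 ± 0.18 (edgeR adjusted p = 0.304), -0.53 without wild-type replicate 1 (adjusted p = 0.03) and -0.13 with the GC trend removed. Atf5, a stress-responsive transcription factor gene, stood at 36 ± 7.37 and 35.0 ± 7.44 CPM (mean ± SD, n = 4 each), with a log2 fold change of -0.04 ± 0.18. Ruvbl2 and Pih1d1 had log2 fold changes of -0.33 ± 0.17 and -0.25 ± 0.25, and of -0.09 and -0.01 with the GC trend removed.

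Tead2, a transcription factor gene of the Hippo pathway named here after its values were seen, had the largest SE of the list. It had 17.5, 1.90, 8.16 and 4.01 CPM in wild-type libraries against 18.6, 2.58, 20.0 and 12.6 CPM in knockout. Acinar genes made up 26.9, 2.08, 14.6 and 5.06% of the same wild-type libraries and 22.4, 5.47, 28.6 and 18.1% in the knockout libraries. Tead2 was lowest in the library with the smallest acinar share and highest in the library with the largest. The log2 difference was 0.76 ± 0.86 (edgeR adjusted p = 0.657) and 0.10 ± 0.24 in a fit with that acinar share as a term. Without wild-type replicate 1 it was 1.5. The same term gave Fcgrt 1.01 (unadjusted p = 0.00759) and Dhdh 0.43 (unadjusted p = 0.0181), without a call at FDR 0.05.

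The 4 genes of RNA processing and protein modification all had negative values, 2 of them at an unadjusted p under 0.05, with a median of -0.28 that was -0.05 with the GC trend removed. Prmt1, the main arginine methyltransferase gene, was at 4.21, 4.94, 5.70 and 6.55 CPM in wild-type libraries against 4.35, 3.85, 2.87 and 4.05 CPM in knockout. Only knockout replicate 1 lay above the lowest wild-type library. It had a log2 fold change of -0.50 ± 0.18 (edgeR adjusted p = 0.193), and -0.36 ± 0.16 with the GC trend removed (unadjusted p = 0.0439). Snrnp70, which encodes a protein of the U1 small nuclear ribonucleoprotein, was among the most abundant listed genes per length, at 71.7 ± 5.68 CPM per kilobase in wild type and 60.6 ± 6.43 in knockout (SD, n = 4 each). Its log2 fold change of -0.24 ± 0.11 (edgeR adjusted p = 0.247) became -0.01 ± 0.09 with the GC trend removed. With the mean GC content of its transcripts, 52.5% in place of 58.5%, it was -0.18 ± 0.10 (unadjusted p = 0.0853). Nup62, a nuclear pore gene, had -0.31 ± 0.17 and Nosip, the gene of a ubiquitin ligase that binds nitric oxide synthase, had -0.07 ± 0.17, and with the GC trend removed they had -0.09 and 0.14.

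**Figure D4:**
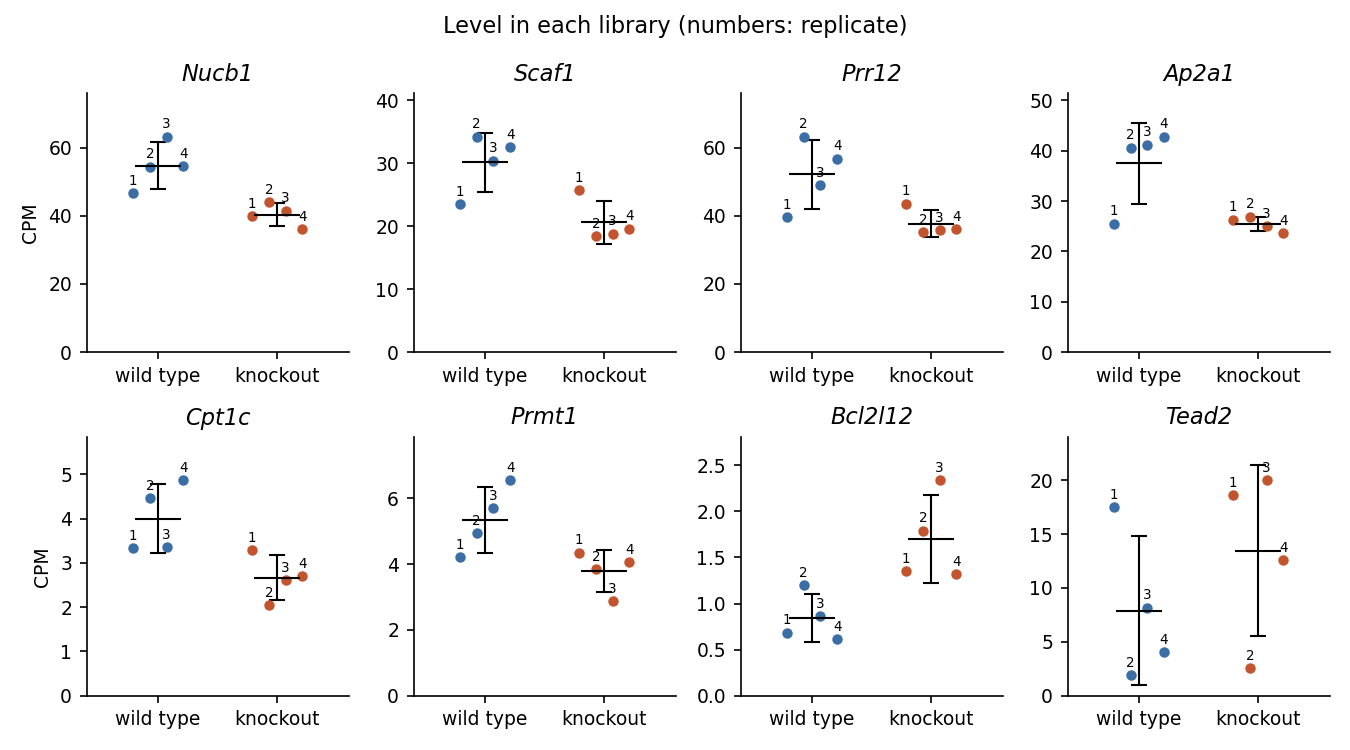
CPM (y axes, from 0) of 8 flanking genes in each wild-type (blue) and knockout (orange) library, with the replicate number beside each point and bars for the mean ± SD of 4 libraries. For Nucb1 and Cpt1c all knockout points lie below all wild-type points, for Bcl2l12 all lie above, and for Scaf1, Prr12, Ap2a1 and Prmt1 wild-type replicate 1 or knockout replicate 1 makes the groups overlap.

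Of 8 tested genes of signalling and trafficking 7 had negative values, 3 were lower and 1 was higher at an unadjusted p under 0.05, and the median was -0.23. Ap2a1, which encodes the alpha subunit of the AP-2 clathrin adaptor, was at 25.5 CPM in wild-type replicate 1 and 40.6, 41.2 and 42.8 CPM in the other wild-type libraries. The knockout libraries held 26.3, 26.9, 25 and 23.6 CPM, a narrow range around the level of wild-type replicate 1. On the log2 scale the difference was -0.56 ± 0.15 (edgeR adjusted p = 0.144). Without wild-type replicate 1 it was -0.72 (adjusted p = 0.00527), and with the GC trend removed -0.29 ± 0.11 (adjusted p = 0.35). Lin7b, the gene of a scaffold protein of cell junctions and synapses, had 1.27, 1.57, 2.38 and 1.29 CPM in wild-type libraries against 0.765, 1.30, 0.618 and 1.03 CPM in knockout. Its log2 fold change was -0.78 ± 0.30 (edgeR adjusted p = 0.218) and -0.50 ± 0.30 with the GC trend removed. Tbc1d17, an activator gene of Rab GTPases, had -0.38 ± 0.16, and -0.21 ± 0.14 with the trend removed. Akt1s1, which encodes an inhibitor of the growth kinase complex mTORC1, had -0.23 ± 0.13 and 0.07 ± 0.11. The remaining genes of this group, Vrk3, Fuz and the Ras-family gene Rras, had log2 fold changes of -0.16, -0.22 and -0.23, and -0.01, 0.04 and 0.00 with the trend removed.

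Bcl2l12, a Bcl-2-related gene, went the other way. It was at 0.685, 1.2, 0.864 and 0.616 CPM in wild-type libraries against 1.35, 1.79, 2.34 and 1.32 CPM in knockout. The lowest knockout value exceeded the highest wild-type value. This gave a log2 fold change of 1.01 ± 0.29 (edgeR adjusted p = 0.151), and 1.23 ± 0.29 with the GC trend removed (unadjusted p = 0.00139, adjusted p = 0.237). It was positive in all 32 alternatives, from 0.34 with limma-trend on the authors' values plus 1 to 1.43. Bcl2l12 is transcribed away from Irf3, and in RefSeq their starts are separated by 68 bases that hold 4 CG pairs (capitals), printed on the strand of Irf3 from chr7:44997580-44997647 of GRCm38.p6.
Between Bcl2l12 and Irf3: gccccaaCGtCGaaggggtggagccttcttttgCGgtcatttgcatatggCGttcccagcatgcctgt
Irf3, on the other side of this stretch, was at 6.91, 5.03, 4.56 and 4.87 CPM in wild-type libraries against 7.12, 5.15, 6.01 and 4.27 CPM in knockout. The genotypes overlapped throughout, with a log2 fold change of 0.07 ± 0.19 (edgeR adjusted p = 0.86) that lay between -0.07 and 0.20 when 1 library was left out.

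The level of Bcl2l12 is uncertain because 33.4% of its exon bases also lie in exons of Gm15545 and Irf3, which run on the opposite strand, and the strand setting of the counting is not given in the sources used here. Gm15545 was at 2.32, 2.23, 3.52 and 2.44 CPM in wild-type libraries against 2.24, 2.18, 2.21 and 2.15 CPM in knockout (log2 fold change -0.26 ± 0.19). Bcl2l12 and Gm15545 together came to 3.47 ± 0.643 CPM in wild-type libraries against 3.90 ± 0.487 CPM in knockout (SD, n = 4 each), with a two-sided exact permutation p of 0.257 over 70 splits. Bcl2l12 made up 24.4 ± 7.23% of that sum in the wild type against 43.1 ± 6.56% in the knockout (two-sided exact permutation p = 0.0286, the smallest these splits allow). These 2 quantities were chosen after the values were seen. Bcl2l12 alone already separated the genotypes fully, so the p of its share adds no independent evidence.

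Of the 3 tested genes of immune cells and antibody transport 2 had negative values and 1 was lower at an unadjusted p under 0.05. Il4i1, which encodes a secreted amino acid oxidase, had the most negative value of the list. It was at 0.554, 0.783, 0.760 and 0.616 CPM in wild-type libraries against 0.176, 0.0652, 0.442 and 0.418 CPM in knockout. All knockout libraries lay below all wild-type libraries, with a log2 fold change of -1.28 ± 0.47 (edgeR adjusted p = 0.199) and of -1.01 ± 0.47 with the GC trend removed. The 8 libraries held 115 of its counts in all, and 86.3% of its exon bases overlap exons of Tbc1d17, Nup62 or Atf5, so its level is uncertain.

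Fcgrt, the neonatal Fc receptor gene, lies 2 places from Rpl13a. It had 0.717, 1.05, 0.657 and 0.728 CPM in wild-type libraries against 1.06, 2.58, 0.574 and 1.29 CPM in knockout. The highest value came from knockout replicate 2, in which liver genes took 0.58%. The part of liver RNA in this value was not tested. The log2 difference was 0.82 ± 0.40 (edgeR adjusted p = 0.288), and 0.31 without knockout replicate 2. Flt3l, the gene of the cytokine Flt3 ligand and the first gene on the other side of Rpl13a, had 1.43, 2.26, 2.42 and 2.49 CPM in wild-type libraries against 2.24, 1.66, 1.41 and 1.64 CPM in knockout. The genotypes overlapped, with a log2 fold change of -0.32 ± 0.23 (edgeR adjusted p = 0.465), and of -0.48 without wild-type replicate 1.

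Of the 7 genes of metabolism and of calcium or iron binding 5 had negative values and 2 were lower at an unadjusted p under 0.05, with a median of -0.20 that was 0.02 with the GC trend removed. Nucb1, which encodes the Golgi calcium-binding protein nucleobindin, had the smallest p of the list. It was at 46.6, 54.4, 63.2 and 54.6 CPM in wild-type libraries against 39.8, 44.0, 41.5 and 36.1 CPM in knockout. All 4 knockout libraries lay below all 4 wild-type libraries. It had a log2 fold change of -0.44 ± 0.11 (unadjusted p = 0.0018, edgeR adjusted p = 0.14). The longest transcript of Nucb1 is poor in GC for this list, and removal of the GC trend gave -0.36 ± 0.10 (unadjusted p = 0.00366, adjusted p = 0.292). With the mean over its transcripts, 56.9%, removal gave -0.24 ± 0.09 (unadjusted p = 0.0259). It was negative in all 32 alternatives, from -0.58 to -0.24.

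Cpt1c, the brain-type carnitine palmitoyltransferase gene, was at 3.33, 4.46, 3.35 and 4.87 CPM in wild-type libraries against 3.29, 2.05, 2.61 and 2.70 CPM in knockout. The genotypes did not overlap, but knockout replicate 1 and wild-type replicate 1 lay side by side. Its log2 fold change was -0.60 ± 0.19 (edgeR adjusted p = 0.175) and -0.38 ± 0.17 with the GC trend removed. Ftl1, the ferritin light chain gene, was the most abundant listed gene per length, at 154 ± 10.5 CPM per kilobase in wild type and 134 ± 15.9 in knockout. Before division by length it was at 142, 139, 153 and 161 CPM in wild-type libraries against 121, 147, 137 and 113 CPM in knockout, where only knockout replicate 2 overlapped the wild type. The estimated log2 change was -0.20 ± 0.11, and 0.02 ± 0.11 with the GC trend removed. Since 90.6% of the 50-base words of its transcript occur in transcripts of other genes, among them the pseudogene Ftl1-ps1, its counts may be split between copies.

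Dhdh, a dihydrodiol dehydrogenase gene and the only listed gene on the GC-poor side, was at 12, 16.3, 14.1 and 16.1 CPM in wild-type libraries against 14.1, 30, 11.6 and 14.6 CPM in knockout. Its log2 fold change of 0.27 ± 0.29 became -0.13 without knockout replicate 2, which held the high value and 0.58% of counts on liver genes. The part of liver RNA here was not tested. Gys1, the muscle glycogen synthase gene, had -0.22 ± 0.14. With the GC trend removed it had -0.06. Near Rpl13a, the aldehyde dehydrogenase family gene Aldh16a1 was at 1.21, 0.963, 1.24 and 0.924 CPM in wild-type libraries against 1.06, 1.34, 1.33 and 0.996 CPM in knockout. This gave a log2 fold change of 0.13 ± 0.23 (edgeR adjusted p = 0.792) and 0.33 with the GC trend removed. Rcn3, which encodes a calcium-binding protein of the endoplasmic reticulum, was at 2.28, 3.94, 3.52 and 2.38 CPM in wild-type libraries against 4.65, 2.45, 1.33 and 2.38 CPM in knockout. Its knockout libraries enclosed the whole wild-type range, with a log2 fold change of -0.19 ± 0.34 (edgeR adjusted p = 0.791) and of 0.07 with the GC trend removed. Without knockout replicate 1 it was -0.56, and without knockout replicate 3 it was 0.02.

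The 5 listed genes that were not tested had too few counts. Slc6a16, an orphan transporter gene, had 0 counts in all 8 libraries, a result that allows up to 3 counts in each (counting error only). Slc17a7, a vesicular glutamate transporter gene of neurons, had 1 count in all, the potassium channel gene Kcna7 had 3 and Dkkl1, best known from testis, had 4. Cd37, a tetraspanin gene of leukocytes, was counted 13 times in the wild type and 4 times in the knockout.

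Position along the chromosome was examined with all protein-coding genes within 60 places of Rpl13a. The host gene itself was at 139, 82.0, 110 and 87.5 CPM in wild-type libraries against 101, 86.7, 106 and 97.8 CPM in knockout, which gives a log2 change of -0.10 ± 0.16 (edgeR adjusted p = 0.76). Without wild-type replicate 1 it was 0.06. A fit that included the acinar share gave -0.22 ± 0.09 (unadjusted p = 0.0407, edgeR adjusted p = 0.303). The level of Rpl13a is uncertain because 57.4% of the 50-base words of its transcript occur in transcripts of other genes, among them Gm45713. Within 10 places 8 of 14 tested genes had negative values with a median of -0.12, and 2 were lower at an unadjusted p under 0.05. From 11 to 30 places away 27 of 28 were negative with a median of -0.34, and 13 were lower at that p, or 46.4%. From 31 to 60 places away 22 of 36 were negative with a median of -0.09, and 6 were lower. Over all tested genes 48.7% were negative and 10.3% lower at that p, and in the 2 classes richest in GC 75 and 80.6% were negative and 22.6 and 31.6% lower. With the GC trend removed the 3 medians were 0.10, -0.11 and 0.08. At that p 1 of 14, 5 of 28 and 5 of 36 genes were then lower, and 2, 0 and 3 were higher. Over all tested genes 6.13% were lower and 6.34% higher with the trend removed. The differences between these distances were not tested. On the remainder of chromosome 7 the median of 951 tested genes was -0.07, with a median GC content of 52.7%, and on other chromosomes it was 0.02, with 49.8%. Both were near 0 with the GC trend removed, at -0.01 and 0.01.

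The 47 tested protein-coding genes in this stretch that were not listed had a median of -0.23 and a median GC content of 57.1%. Of these, 10 were lower and 2 higher at an unadjusted p under 0.05, or 21.3% lower. With the GC trend removed their median was 0.06, and 7 were lower and 3 higher at that p. Over all tested genes 6.13% were then lower and 6.34% higher. Klk1b22, a kallikrein gene 56 places away, was the one gene past FDR 0.05, at 0 to 0.0326 CPM in wild-type libraries against 3.06 to 4.43 CPM in knockout. Next among higher genes was Car11, a carbonic anhydrase-related gene 40 places away, at 0.349 ± 0.164 and 0.975 ± 0.0982 CPM (SD, n = 4 each, edgeR adjusted p = 0.144). The lower genes of smallest p were the kinase gene Lmtk3, with a log2 fold change of -0.98 ± 0.19, and Emc10, a subunit gene of the membrane protein insertion complex of the endoplasmic reticulum, with -0.53 ± 0.11 (edgeR adjusted p = 0.116 for both). They have transcripts of 66.7 and 60.7% GC, and their values were -0.59 and -0.23 with the GC trend removed.

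**Figure D5:**
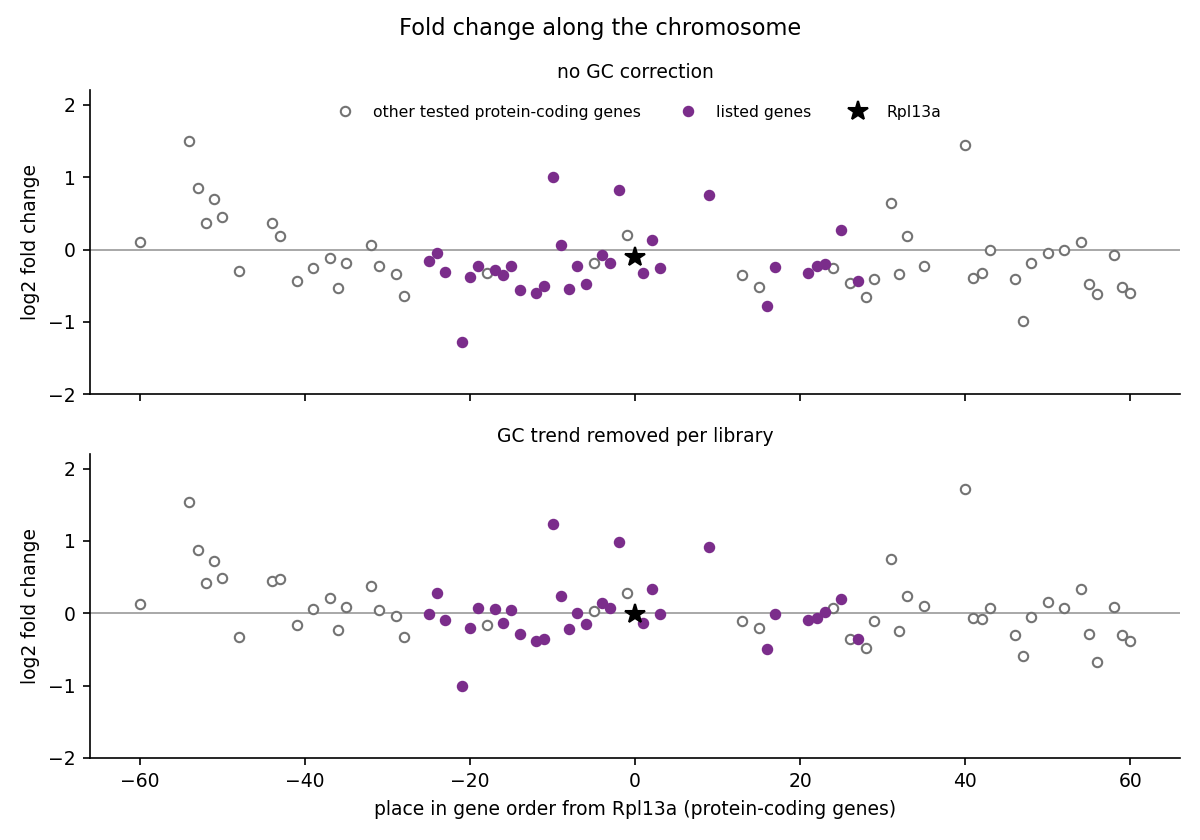
Log2 fold change (y axes) of tested protein-coding genes by their place in gene order from Rpl13a (x axis, number of genes), without GC correction (upper panel) and with the GC trend removed (lower panel), with listed genes in purple, other genes as open circles and Rpl13a as a star. Klk1b22 lies above the plotted range and is left out. In the upper panel 27 of the 28 genes that lie 11 to 30 places away are below 0.

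Genes whose products work with those of the flanking genes lie elsewhere in the genome or further along and were counted as lists. In edgeR's test 0 genes of any of these lists passed FDR 0.05, and the counts below are at an unadjusted p under 0.05, where 10.3% of all tested genes were lower and 8.42% higher. For Ruvbl2 and Pih1d1, 10 genes of the R2TP complex and of box C/D snoRNPs had a median log2 fold change of 0.08, with 0 lower and 1 higher at that p. That one was Nufip1, an assembly factor, at 0.44 ± 0.19, and Nhp2l1, a core snoRNP protein gene, had -0.19 ± 0.10. With the GC trend removed the list had a median of 0.02, with 1 lower (Nhp2l1, at -0.30) and 0 higher at that p. Over all tested genes 6.13% were then lower and 6.34% higher. For Snrnp70, 9 genes of small nuclear ribonucleoproteins had a median of 0.14, with 1 lower and 3 higher, among them Snrpe at 0.37 ± 0.13 and Snrpa, the richest in GC but for Snrpb, at -0.33 ± 0.13. The median of this list was 0.10 with the GC trend removed, with 0 lower and 0 higher. For Ap2a1, the other AP-2 and clathrin genes had a median of -0.04, with 1 lower and 0 higher. These included the small subunit gene Ap2s1 at -0.73 ± 0.20 (59.6% GC, edgeR adjusted p = 0.144) and the medium subunit gene Ap2m1 at -0.26 ± 0.12. After removal of the GC trend the median was -0.12, with 1 lower (Ap2s1, at -0.45) and 0 higher.

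For Akt1s1, 7 genes of mTORC1 and its regulators had a median of -0.13, with 1 lower and 0 higher, and were led by Tsc1 at -0.24 ± 0.10 and Rheb at 0.33 ± 0.16. Removal of the GC trend gave a median of -0.01, with 0 lower and 0 higher. For Gys1 and Ftl1, 8 genes of glycogen metabolism and ferritin had a median of 0.25 and 4 were higher at an unadjusted p under 0.05, among them the branching enzyme gene Gbe1 at 0.66 ± 0.24 and Ugp2 at 0.55 ± 0.22. With the GC trend removed these were 0.51 and 0.35, and the median of the list was 0.28. At that p 3 genes were then higher, which were Gbe1, Pygl and Fth1, where 6.34% of all tested genes were. Pygl, among the higher genes in both counts, was at 0.551 ± 0.211 CPM in wild type against 3.97 ± 5.92 CPM in knockout (SD, n = 4 each). Liver genes took 0.58% of knockout replicate 2, and the part of liver RNA in Pygl was not tested. For Irf3, 7 genes of interferon regulation had a median of -0.03 and 0 below that p, with Irf1 at -0.22 ± 0.14 and Irf7 at -0.34 ± 0.34. Removal of the GC trend gave a median of -0.06 and again 0 below that p. For Prmt1, the other arginine methyltransferase genes had a median of -0.11, with 1 lower and 1 higher, and the smallest p were those of Prmt3 at 0.58 ± 0.16 and Carm1 at -0.33 ± 0.12. After GC removal the median was -0.05, with 0 lower and 1 higher (Prmt3, at 0.52). For Atf5, 7 genes of the integrated stress response had a median of -0.09, with 1 lower and 0 higher, led by Ppp1r15a, itself 28 places from Rpl13a, at -0.65 ± 0.13 (edgeR adjusted p = 0.116) and Atf4 at -0.29 ± 0.17. After GC removal the median was 0.07, with 1 lower (Ppp1r15a, at -0.48) and 0 higher.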

How the data were processed

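RNA of 8 islet libraries was prepared with TRIZOL, Turbo DNAse and the SeqPlex RNAseq kit, per the labels' protocols. STAR 2.4.1, Partek and the mouse build mm9 are named in the submitters' processing notes, while for gene annotation and strand nothing is stated there. The deposited values used are estimated counts per gene, not all whole (9.98 to 12.4% of values per library were not), which were rounded. The authors' normalized values, in RPM, served for an alternative. Genes passing filterByExpr (13617) were scaled by TMM and compared by edgeR 4.0.16's quasi-likelihood test in R 4.3.3, with Benjamini-Hochberg adjustment over all of them. The test was tried on simulated data with known changes. Where a GC trend was simulated, wild-type replicate 1 had a positive slope, unlike its measured one, so the overlap of the genotypes was not simulated. DESeq2 1.42.0 and limma 3.58.1 gave alternatives. GC content came from GENCODE M21 transcripts, matched by symbol for 98.4% of genes, and its trend was removed by lowess (span 0.3) per library. Reference coordinates are of GRCm38, not of the files' build. P-values measure the spread between these libraries.

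The members and lists were chosen with earlier results of these data known. Genes with values in every library are Rpl13a, the 4 nearest tested genes, the 8 of smallest p and those extreme in fold change, GC content or level per length. Irf3 meets none of these rules and is given as the neighbour of Bcl2l12. Med25, Tead2 and Gm15545 were named after their values were seen. No column of per-sample values was left unused (0). Genes that overlap others or have near-identical copies are uncertain. Of the 31 tested genes, 11 share over 10% of their exon bases with other genes, Tbc1d17, Fuz and Lin7b among them.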

Additional observations from a re-analysis of the deposited data

Results flagged for a closer look

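In 7 of 82 groups of 4 libraries a single library lay apart from the other 3 by Dixon's ratio, and chance gives about 1 in 20 groups. Knockout replicate 1 was high for Scaf1, at 25.7 CPM where the other knockout libraries held 18.4 to 19.6, and for Prr12, at 43.5 CPM beside 35.2 to 36.1. Wild-type replicate 1 was low for Med25, at 5.77 CPM beside 9.64 to 10.1, and for Ap2a1, at 25.5 CPM beside 40.6 to 42.8. It also had the lowest slope of level on GC content in its genotype, at -0.0582 log2 units per 10 percentage points beside 0.158 to 0.19. Knockout replicate 2 was high for Dhdh, at 30 CPM beside 11.6 to 14.6, and for the share of counts on liver genes, at 0.58% beside 0.00039 to 0.000988%.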

How the results depend on the processing

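The median log2 fold change of the 31 flanking genes (-0.24) was -0.40 without a composition factor, which moved the median of all genes by -0.12, and -0.38 with limma-trend on the authors' values plus 0.1. With the GC trend removed it was -0.0088, and -0.012 with span 0.7 and -0.075 with mean GC content over transcripts. Leaving out 1 library at a time gave -0.32 to -0.20. With the GC trend also removed, leave-outs of wild-type replicates 1 to 4 gave -0.0014, -0.06, 0.00091 and -0.0047, and of knockout replicates 1 to 4 -0.033, -0.047, -0.047 and -0.0022. Those other than wild-type replicate 1 were chosen after seeing the data. The flanking genes past FDR 0.05 (0) were 4 with DESeq2 and 0 to 6 over single leave-outs. Over all genes the count (2) was 48 without a composition factor, 526 with DESeq2, 51 and 58 with limma-trend on values plus 1 and plus 0.1, and 2 to 1313 over leave-outs, with 5 without knockout replicate 4. With the GC trend removed leave-outs gave 158 (wild-type replicate 1), 1 (wild-type replicates 2 and 3, each) and 4 (knockout replicate 4). The GC slope difference (-0.229) was -0.286 without wild-type replicate 1. The causes of these moves were not tested. Levels under about 1 CPM rest on few counts.

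Same-numbered libraries correlated at 0.0383, 0.21, 0.156 and 0.147, and since the first is under 0.1 the numbers were not taken as pairs. Wild-type replicates 2, 3 and 4 and knockout replicates 2 and 4 correlated best with their own number. With the replicate block 2 genes and 0 flanking genes passed FDR 0.05, with a median of -0.25, or of -0.011 with the GC trend removed. At an unadjusted p under 0.05 the block left 8 flanking genes lower and 2 higher, where 11 and 1 were without it. Over all 13617 tested genes it left 1103 lower and 1102 higher, where 1398 and 1147 were without it. Tead2 was 0.88 ± 0.26 with the block (unadjusted p = 0.0112, adjusted p = 0.232).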
